A study of Mus musculus with 21 samples.

Results

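The genes described here are 10 genes of the unfolded protein response: Manf, Hspa5, Xbp1, Creld2, Sdf2l1, Pdia4, Hsp90b1, Dnajb9, Ddit3 and Atf4. They were taken by gene symbol from a table of 41128 symbols, each of the 10 matched 1 row, and all 10 passed the filter on low values in both sets of libraries. Mouse striatum, a deep forebrain nucleus made up largely of medium spiny neurons, was collected 3 weeks after adeno-associated virus (AAV) was injected there and gave 21 libraries. They form a set A of 9 (WT, Cas9 and GCas9, 3 libraries a group) and a set B of 12 (GFP, Cas9 and GCas9, 4 libraries a group). The mice of all groups are given as wild type, and the groups differ in the name of the virus: Cas9 is the genome-editing nuclease, GFP a fluorescent protein used as a cargo, while the name GCas9 is left unexplained (the study is known for fusing Cas9 with a Geminin fragment). The promoter that drives each cargo is not given in the sources used here. One injection protocol covers all libraries, so whether the WT mice received a virus is not known and WT is used as a label. The labels disagree on age, with 3 weeks in the sample tags and 3 months in the growth protocol, and this could not be settled. Nothing in the labels says that libraries of a group came from separate animals, so p-values measure the spread between these libraries.

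The unfolded protein response answers a surplus of misfolded protein in the endoplasmic reticulum (ER), the compartment in which secreted and membrane proteins fold. Of its sensors, IRE1 splices the Xbp1 mRNA, ATF6 is cut into an active transcription factor, and PERK slows translation while the Atf4 mRNA is still translated. XBP1 and ATF6 raise ER chaperones through promoter elements called ERSE, and ATF4 raises amino acid and stress genes such as Ddit3. In the brain the secreted ER protein MANF is known as a factor that supports neurons under such stress. Gene counts hold neither the splicing of Xbp1 nor the translation of Atf4.

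In set A the 10 genes were all higher on average in Cas9 than in WT libraries, with Manf standing highest at 2.41-fold, and all 10 were also higher in GCas9 than in WT, where Manf reached 1.23-fold. Between GCas9 and Cas9, Manf was lower in GCas9 with no overlap of the libraries, while the other 9 genes differed by -0.12 to 0.16 on the log2 scale. In set B no gene of the 10 separated the groups. No gene of the 10 passed the threshold (adjusted p under 0.05, limma) in any of these comparisons.

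ERSE is CCAAT, then 9 bases of any kind, then CCACG, and was searched on both strands of the 250 bases before the RefSeq start of each gene. RefSeq promoters (GRCm38.p6) were matched for 9 of the 10 genes, Manf being the one not matched. ERSE was found in 3 of these 9, against 37 of 32851 promoters of all genes (0.113%). The 3 promoters are shown because they carry this element, the ERSE in capitals and positions counted back from the RefSeq start. Hspa5 is shown at chr2:34772020-34772049 (plus strand, -70 to -41), Creld2 at chr15:88819426-88819575 (plus strand, -220 to -71) and Hsp90b1 at chr10:86705515-86705664 (minus strand, -220 to -71).
Hspa5: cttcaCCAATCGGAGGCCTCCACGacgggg
Creld2: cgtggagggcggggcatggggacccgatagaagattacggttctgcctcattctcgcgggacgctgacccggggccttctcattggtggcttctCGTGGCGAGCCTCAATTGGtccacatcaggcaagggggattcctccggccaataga
Hsp90b1: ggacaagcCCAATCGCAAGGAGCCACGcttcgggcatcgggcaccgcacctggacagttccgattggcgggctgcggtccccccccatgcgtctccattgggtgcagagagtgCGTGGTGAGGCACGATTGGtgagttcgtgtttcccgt
Hspa5 holds 1 ERSE in the direction of the gene and Creld2 holds 1 on the other strand, so that its capitals read as the reverse complement. Hsp90b1 holds 2, the first in the direction of the gene and the second on the other strand. GENCODE M21 starts a longer Hspa5 transcript upstream of this stretch, so there the element lies in an annotated first exon. The shorter ERSE-II (ATTGG, 1 base of any kind, CCACG) was found in 0 of the 9 promoters and in 0.0304% of all, and the UPRE core (TGACGTGG) in 0 of 9 and in 0.563%. CCACG, which every ERSE and ERSE-II match also holds, was in 6 of the 9 and in 28.3% of all promoters.

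Manf (chr9:106838312-106891979, minus strand, GENCODE M21 on GRCm38) encodes the mesencephalic astrocyte-derived neurotrophic factor, a small protein that sits in the ER with the chaperone Hspa5 and is secreted under ER stress. Its normalized read counts in set A were 668, 763 and 671 in the WT libraries, 1802, 2483 and 1067 in the Cas9 libraries, and 718, 925 and 962 in the GCas9 libraries. Each Cas9 library lay above each WT and each GCas9 library, whereas 1 GCas9 library lay inside the WT range. The group means were 701 ± 53.9 (SD, n = 3), 1784 ± 708 (SD, n = 3) and 869 ± 132 (SD, n = 3). The spread in the Cas9 group was thus far wider than in the other groups, and Cas9 replicate 2 had the highest value and replicate 3 the lowest.

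The log2 fold change of Manf, Cas9 against WT, was 1.27 ± 0.26 (standard error of the fit, as for all fold changes here), with a 95% interval of 0.68 to 1.86. By p it ranked 29 of 15924 genes, and its adjusted p was 0.41. Manf passed the threshold with DESeq2 on the recovered reads (1.35 ± 0.26, adjusted p = 0.00026) and with limma weighting each library by its fit (0.74 ± 0.21, adjusted p = 0.041). Of the 15924 genes, DESeq2 called 116 and limma with these weights called 2570. With every other setting tried its adjusted p lay between 0.076 and 0.77, and its fold change stayed between 0.99 (without Cas9 replicate 2) and 1.6 (without Cas9 replicate 3). In GCas9 against WT, Manf differed by 0.3 ± 0.26 with an interval of -0.29 to 0.89. In GCas9 against Cas9 it differed by -0.97 ± 0.26 (interval -1.56 to -0.38, adjusted p = 0.89), and no alternative brought this below an adjusted p of 0.082 (DESeq2). Groups that do not overlap with GCas9 lower are found in 4.45% of genes in this comparison. The comparisons of set A share libraries with one another, so that the Manf differences against WT and against Cas9 both rest on the same 3 Cas9 libraries.

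**Figure D1:**
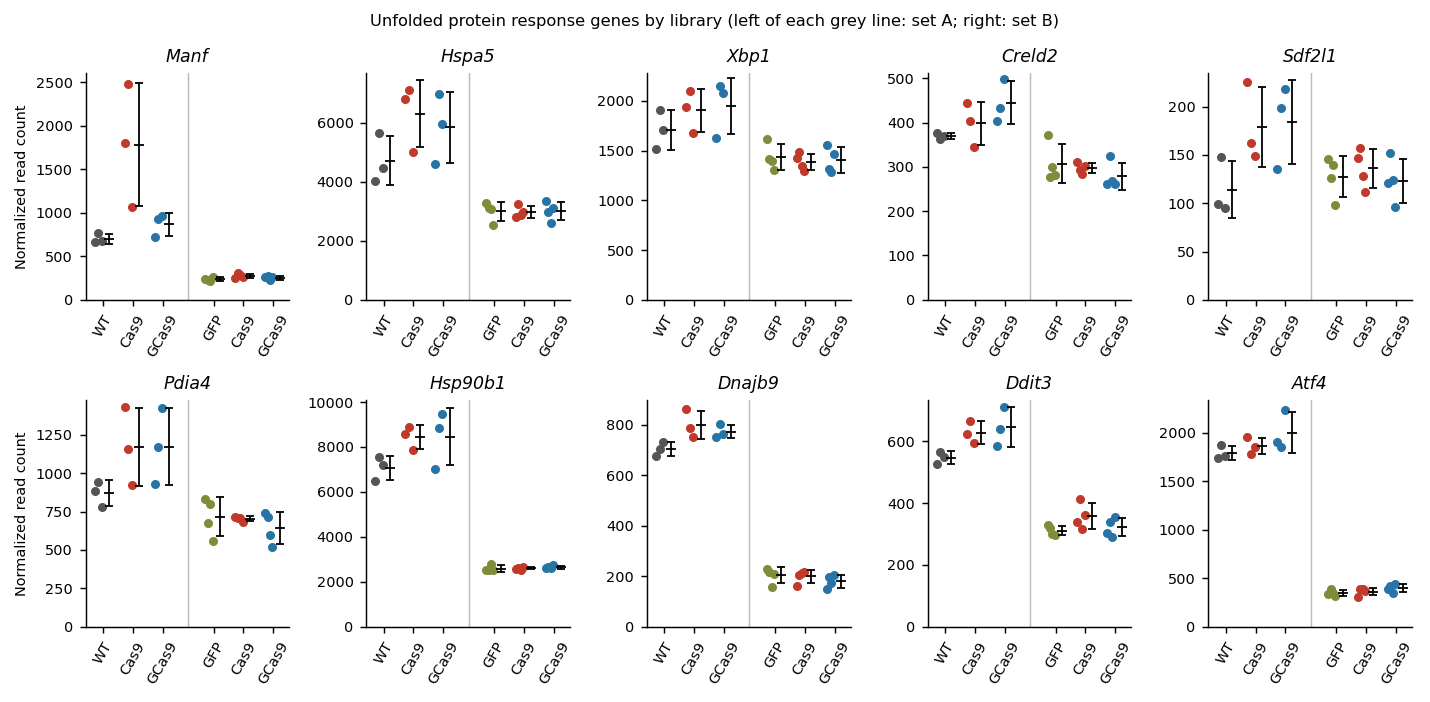
Normalized read counts (vertical axes, each starting at 0) of the 10 genes in each library; points are libraries, and the black bar and whiskers give the group mean and SD. In set A (left of the grey line, n = 3 a group) the Cas9 points of Manf run from 1067 to 2483, above all WT and GCas9 points, while in set B (right, n = 4 a group) the groups overlap for each gene; the sets were scaled apart and are not compared in height.

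In set B the Manf counts were 244, 228, 213 and 263 in GFP libraries, 254, 306, 286 and 266 in Cas9 libraries, and 257, 274, 222 and 261 in GCas9 libraries. The 3 groups overlapped, with GFP replicate 4 inside the range of the Cas9 libraries. Manf differed by 0.23 ± 0.1 between Cas9 and GFP (interval 0.02 to 0.44, adjusted p = 0.79). Without GFP replicate 2 or 3, or without Cas9 replicate 2 or 3, the unadjusted p exceeded 0.05. GCas9 differed from GFP by 0.1 ± 0.1 and from Cas9 by -0.13 ± 0.1 (interval -0.34 to 0.08).

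Because both sets hold Cas9 and GCas9, the difference between these 2 could be compared across sets in a fit of all 21 libraries. The mean of the within-set differences for Manf was -0.55 ± 0.13 (interval -0.82 to -0.28, adjusted p = 1.0). The difference in set A minus that in set B was -0.83 ± 0.26 (interval -1.38 to -0.29, adjusted p = 0.99). Manf had an unadjusted p under 0.05 in both tests, as did 3.72% of 16094 genes in the first and 4.34% in the second, while 0.0% of genes passed the threshold in either. The other 9 genes differed between sets by -0.13 to 0.26, with intervals that include 0. The sets differ in depth, in their control group and in mitochondrial reads (6.0% to 7.57% in set A, 1.03% to 2.18% in set B). The gene 1810014B01Rik, which overlaps Hsp90b1 on the opposite strand, had group means of 35.3 to 40.2 in set A. In set B, scaled to smaller totals, its group means were 679.5 to 725.8. The sets may thus differ in how libraries were made or counted, and the part of this in the Manf difference was not tested.

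Manf was also set against its partner chaperone within each library, a ratio that library scaling cannot move. Per 100 reads of Hspa5 there were 16.5, 13.5 and 15 reads of Manf in the WT libraries, 26.4, 35 and 21.2 in the Cas9 libraries, and 15.7, 13.2 and 16.1 in the GCas9 libraries. The GCas9 ratios lay within or just beside the WT range, and the Cas9 ratios lay above both. In set B the ratio was 7.4, 7.3, 6.9 and 10.4 in GFP libraries, 9.1, 9.4, 10 and 9 in Cas9 libraries, and 7.7, 9.1, 8.6 and 8.4 in GCas9 libraries, and the groups overlapped. The Cdnf gene, the paralog of Manf, was far less abundant. Per kilobase of its main transcript it gave a mean of 18.2 ± 1.66 normalized reads in WT libraries against 312 ± 24 for Manf. Cdnf differed by -0.23 ± 0.21 between Cas9 and WT.

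The Manf locus overlaps other genes in GENCODE M21, and whether the authors counted by strand is not given in the sources used here. Rbm15b, on the same strand, differed by -0.08 ± 0.06 between Cas9 and WT in set A, at means of 1192 and 1260. Dcaf1, listed in the table as Vprbp on the opposite strand, differed by -0.12 ± 0.05. Neither shared the direction of Manf. In set B, in Cas9 against GFP, Rbm15b differed by -0.33 ± 0.14 and Dcaf1 by -0.31 ± 0.08. The antisense gene 4930524O07Rik was tested in set B alone, where it differed by 0.18 ± 0.12.

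Among the chaperones, Hspa5 (BiP, the main Hsp70 chaperone of the ER; chr2:34771970-34777547, plus strand) had counts of 4039, 5648 and 4473 in WT, 6815, 7093 and 5025 in Cas9, and 4585, 6981 and 5974 in GCas9 libraries. Cas9 replicate 3 lay inside the WT range, and so did GCas9 replicate 1. Hspa5 differed by 0.42 ± 0.19 in Cas9 and by 0.3 ± 0.19 in GCas9 against WT (adjusted p = 0.43 and 0.76). Hsp90b1 (GRP94, the ER form of Hsp90; chr10:86690209-86705509, minus strand) had 6472, 7538 and 7200 in WT, 8591, 8875 and 7869 in Cas9, and 7037, 8862 and 9466 in GCas9 libraries. All Cas9 libraries lay above all WT libraries, at 0.26 ± 0.11 (adjusted p = 0.42), and GCas9 differed by 0.25 ± 0.11 with its replicate 1 inside the WT range.

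Pdia4 (ERp72, a protein disulfide isomerase; chr6:47796141-47813430, minus strand) had 886, 944 and 778 counts in WT, 1430, 1157 and 923 in Cas9, and 927, 1170 and 1424 in GCas9 libraries. The lowest Cas9 and GCas9 libraries lay below the highest WT library, and the differences were 0.41 ± 0.18 and 0.42 ± 0.18. Sdf2l1 (a partner of ER J-domain proteins; chr16:17130138-17132383, minus strand) had 99.1, 148.3 and 94.9 in WT, 225.6, 162.7 and 148.7 in Cas9, and 135.2, 198.8 and 218.3 in GCas9 libraries. It was 1.57-fold higher in Cas9 and 1.61-fold higher in GCas9 than in WT, with intervals of 0.09 to 1.21 and 0.12 to 1.25 on the log2 scale. The gap between Cas9 and WT at their nearest libraries was less than 1 normalized read. Sdf2l1 rested on 371 reads in the WT group, the fewest of the 10 genes in set A.

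Dnajb9 (ERdj4, a co-chaperone that returns IRE1 to rest; chr12:44205559-44210326, minus strand) had 677, 705 and 733 counts in WT, 861, 785 and 751 in Cas9, and 752, 802 and 763 in GCas9 libraries. Neither treated group overlapped WT, yet the differences were small, at 0.18 ± 0.07 and 0.13 ± 0.07. Creld2 (a secreted protein of the ER folding machinery; chr15:88819646-88826683, plus strand) had 376, 363 and 371 in WT, 444, 404 and 346 in Cas9, and 404, 432 and 499 in GCas9 libraries. The GCas9 libraries lay above WT at 0.26 ± 0.11, whereas Cas9 straddled WT at 0.1 ± 0.11 and turned to -0.06 with library weights.

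Of the transcription factors, Xbp1 (chr11:5520659-5525893, plus strand), the target of IRE1, had 1512, 1908 and 1704 counts in WT, 1941, 2098 and 1675 in Cas9, and 1627, 2144 and 2075 in GCas9 libraries. The groups overlapped, at 0.16 ± 0.13 and 0.19 ± 0.13. Atf4 (chr15:80255184-80257541, plus strand) had 1735, 1875 and 1758 in WT, 1950, 1779 and 1855 in Cas9, and 1906, 1847 and 2238 in GCas9 libraries. These groups overlapped too, at 0.06 ± 0.08 and 0.15 ± 0.08. Ddit3 (CHOP, the ATF4-induced factor tied to cell death; chr10:127290829-127293753, plus strand) had 525, 566 and 549 in WT, 623, 666 and 593 in Cas9, and 583, 641 and 711 in GCas9 libraries. Both treated groups lay above WT, at 0.2 ± 0.08 and 0.23 ± 0.08 (adjusted p = 0.42 and 0.72). Mars, which overlaps Ddit3 on the opposite strand, differed by 0.04 ± 0.06 and 0.1 ± 0.06.

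Counted over the list, 10 of 10 genes were higher in Cas9 than in WT, against 49.1% of the 15924 genes tested, with a median of 0.23 against 0.00 for all genes. Genes past the threshold were 0 of 10, beside 0.00628% of all genes. DESeq2 called 1 of the 10, beside 116 of all 15924 genes, and edgeR called 0, beside 0 of all genes. An unadjusted p under 0.05 with a higher value in Cas9 was reached by 5 of 10 (Manf, Sdf2l1, Dnajb9, Ddit3 and Hsp90b1), against 6.17% of all genes. The same 5 had groups that did not overlap, against 10.7%. With single libraries left out, the count of 5 at an unadjusted p under 0.05 ran from 1 to 7. It fell to 1 without WT replicate 1 or without Cas9 replicate 1, to 2 without WT replicate 3 and to 3 without Cas9 replicate 2. In GCas9 against WT, 10 of 10 were higher (49.9% of all genes) with a median of 0.25, and 3 reached an unadjusted p under 0.05 (Ddit3, Sdf2l1 and Creld2; 4.44% of all genes). Groups did not overlap for Ddit3, Dnajb9 and Creld2 (9.16%). The threshold was passed by 0 of 10, with 0.00628% of all genes past it, and by 0 with DESeq2 and edgeR (218 and 1 of all genes). With a replicate block on the 2 groups alone, chosen after seeing the data, 8 of 10 reached an unadjusted p under 0.05 with a higher value. These were all but Dnajb9 and Atf4, against 6.28% of all genes, and the adjusted p of the 10 lay between 0.45 and 0.49. The pairing behind this block was inferred from these same libraries, so the count of 8 is no separate evidence. Over all genes, 1 passed the threshold without a block, 2 with it in the fit of 3 groups and 0 with it in the fit of these 2. The count of 3 became 0 without WT replicate 1 or GCas9 replicate 3, 1 without WT replicate 3, and 7 without GCas9 replicate 1. These 2 comparisons share the WT libraries, and most of the 10 genes vary together between libraries, so their counts are not independent. The 3 genes with an ERSE in the promoters shown above, Hspa5, Hsp90b1 and Creld2, differed by 0.42, 0.26 and 0.1 in Cas9 against WT, inside the span of 0.06 to 0.65 of the other 6 genes with a promoter searched.

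In GCas9 against Cas9 of set A, 6 genes were higher (54.3% of all genes) and 4 lower, the median was 0.02 against 0.01 for all genes, and Manf was the 1 gene with an unadjusted p under 0.05 (lower; 3.07% of all genes). The widest of the other intervals, for Sdf2l1, ran from -0.53 to 0.6. The 3 GCas9 and 3 Cas9 libraries thus left room for differences of that size in the other genes. None of the 10 passed the threshold with limma (0.0% of all genes did), edgeR (0 of all genes) or DESeq2 (4 of all genes).

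**Figure D2:**
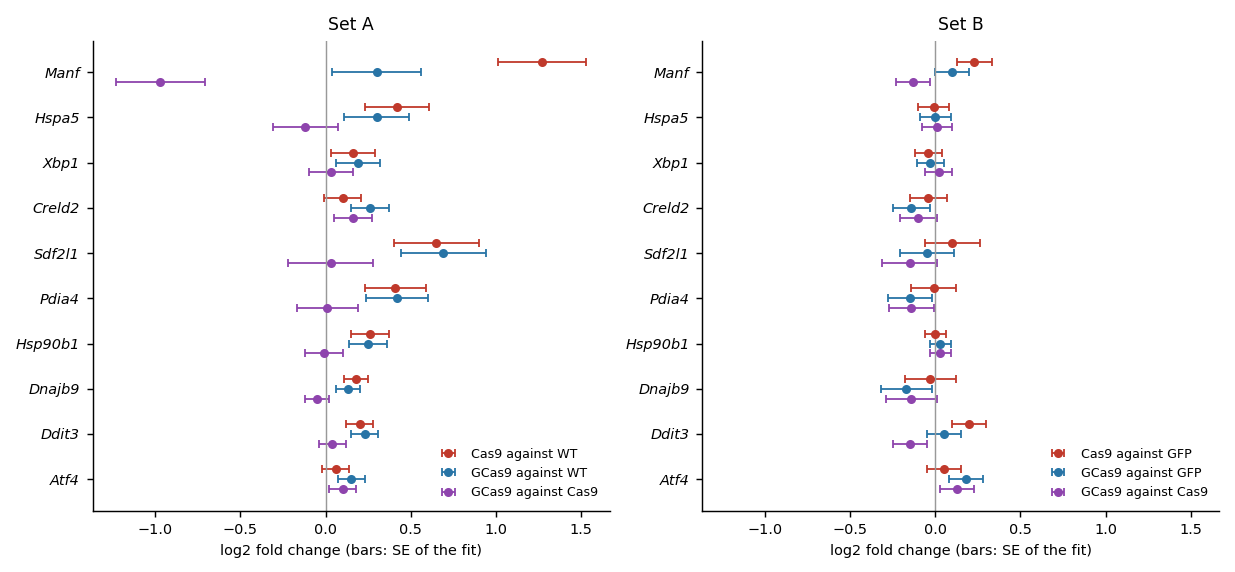
Log2 fold changes (horizontal axes) of the 10 genes in set A (left) and set B (right); points are estimates, bars are standard errors of the limma fit, and colours are the 3 comparisons of each set. Manf lies at 1.27 for Cas9 against WT and at -0.97 for GCas9 against Cas9 in set A, and in set B the estimates lie between -0.17 and 0.23.

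In set B, Cas9 against GFP gave 5 genes higher (48.7% of all genes) and 5 lower with a median of 0.00, and Manf alone reached an unadjusted p under 0.05 (3.23% of all genes were so in the higher direction). GCas9 against GFP gave 5 higher (49.1%) and 5 lower, with a median of -0.01. GCas9 against Cas9 gave 4 higher (50.6%) and 6 lower, with a median of -0.12. Neither had a gene of the 10 at an unadjusted p under 0.05, against 6.48% and 3.84% of all genes. In set B, 0 of the 10 had groups that did not overlap, a share that among all genes was 2.63% higher and 2.05% lower in Cas9 against GFP, 2.5% and 1.66% in GCas9 against GFP, and 1.23% and 0.797% in GCas9 against Cas9. None of the 10 passed the threshold in any of the 3 comparisons with limma (0.0% of 15428 genes did in each), edgeR or DESeq2. Of all genes, edgeR called 0 in each, and DESeq2 called 14 in Cas9 against GFP, 41 in GCas9 against GFP and 0 in GCas9 against Cas9. After Manf, the nearest to a difference were Ddit3 in Cas9 against GFP (0.2 ± 0.1) and Atf4 in GCas9 against GFP (0.18 ± 0.1). Ddit3 had a lowest, median and highest count of 296, 310 and 329 in GFP and of 318, 350 and 414 in Cas9 libraries, which overlap. Atf4 had 321, 341 and 388 in GFP and 344, 401 and 439 in GCas9 libraries, which also overlap. Hsp90b1 varied little in set B, at 2591 ± 136, 2597 ± 46.3 and 2649 ± 68.4 in GFP, Cas9 and GCas9 libraries (SD, n = 4 each). The other set B ranges over all 12 libraries were 2538 to 3338 for Hspa5, 1282 to 1611 for Xbp1, 260 to 372 for Creld2, 96.4 to 157 for Sdf2l1, 516 to 834 for Pdia4 and 147 to 229 for Dnajb9. In bulk tissue, fewer cells of a type and less RNA per cell cannot be told apart for any of these genes.

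The levels of the 10 genes were put in order per kilobase of main transcript in the control libraries of each set. In WT libraries the normalized reads per kilobase fell from Hsp90b1 (2503 ± 193) over Hspa5 (1285 ± 227), Atf4 (1037 ± 43.4), Xbp1 (802 ± 92.9), Ddit3 (614 ± 23.6), Pdia4 (362 ± 35.1), Manf (312 ± 24), Dnajb9 (286 ± 11.4) and Creld2 (271 ± 4.94) to Sdf2l1 (103 ± 26.8; SD, n = 3). Pdia4 and Manf, Manf and Dnajb9, and Dnajb9 and Creld2 overlapped between libraries, and the other neighbours did not. In GFP libraries of set B the order was Hsp90b1 (917 ± 48.3), Hspa5 (817 ± 88.1), Xbp1 (673 ± 60.6), Ddit3 (350 ± 17.8), Pdia4 (299 ± 52.6), Creld2 (225 ± 32.1), Atf4 (202 ± 17), Sdf2l1 (115 ± 19.1), Manf (106 ± 9.61) and Dnajb9 (82.6 ± 12.7; SD, n = 4). There Xbp1 stood clear of Ddit3, Atf4 of Sdf2l1 and Manf of Dnajb9, and the other neighbours overlapped. Atf4 thus stood above Xbp1 in set A and below it in set B, an order within libraries that scaling does not move. The sets also differ in mitochondrial reads (6.0% to 7.57% against 1.03% to 2.18%), so this order is not read as a difference in expression.

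Within the groups of set A most of the 10 genes shared the library that was lowest or highest. Cas9 replicate 3 was the lowest of its group for 9 of the 10 genes, and GCas9 replicate 1 for 9 of 10. The highest Cas9 library was split, with replicate 1 for 5 genes and replicate 2 for 5. WT replicate 2 was the highest of its group for 8 of 10, and GCas9 replicate 3 for 7 of 10. In set B the pattern was weaker, the clearest case being GFP replicate 1, highest for 7 of 10. As a description, Pearson's r with Manf was taken over the deviations of the 21 libraries from their group means on the log2 scale. These deviations share library, depth and scaling. Among 11652 genes, Hspa5 ranked 6 (r = 0.66, Spearman's rho = 0.63) and Xbp1 ranked 14 (r = 0.61, rho = 0.58), whereas Atf4 ranked 2355 (r = 0.17). For Hspa5, r was 0.78 within set A and 0.21 within set B.

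The 8 genes with the highest r to Manf were Bcl2 (0.74), Sik2 (0.67), Pdia6 (0.67), Samd11 (0.66), Rusc1 (0.66), Hspa5 (0.66), Samd10 (0.65) and Arl4a (0.65). Hspa5 and Pdia6, a protein disulfide isomerase of the ER, are the folding genes among them. Spearman's rho was lowest for Arl4a (0.29) and Sik2 (0.3). For the 8 genes, r ran from 0.72 (Samd11) to 0.86 (Bcl2) within set A and from -0.02 (Sik2) to 0.67 (Samd11) within set B. None shared the size of the Manf difference between groups: in Cas9 against WT the other 7 besides Hspa5 lay between -0.2 and 0.24, with Bcl2, the inhibitor of apoptosis, at 0.11 ± 0.17.

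The libraries of the striatum carried its markers: Ppp1r1b (DARPP-32), which defines medium spiny neurons, had normalized counts of 53417 to 68228 over set A and of 21660 to 28428 over set B. Reads on genes numbered 20.34 to 28.05 M (mega) per library of set A, and 6.09 to 11.07 M per library of set B. Several lists of markers of other cells and states moved with the groups of set A. The summed counts of 20 interferon-stimulated genes were 2204 to 2622 in WT, 2821 to 8329 in Cas9 and 2653 to 54894 in GCas9 libraries. The 19 plasma and B cell genes summed to 555 to 774, 1665 to 25908 and 3699 to 62145, with 18 of the 18 tested higher in Cas9 and in GCas9 than in WT and at most 2 genes at 0 in a WT library. The 17 reactive astrocyte genes summed to 3403 to 3888, 8663 to 17679 and 8889 to 44512, and the 19 activated microglia and macrophage genes to 50320 to 53341, 62487 to 81914 and 63410 to 76980. The 14 oligodendrocyte genes, none of them at 0, summed to 205575 to 248044 in WT, 240776 to 397022 in Cas9 and 211420 to 228597 in GCas9 libraries, and the lowest Cas9 library lay inside the WT range. The 11 endothelial genes, none at 0, had the separation of Manf, with sums of 10316 to 12397 in Cas9 libraries, above all WT (9214 to 9917) and all GCas9 libraries (9778 to 10007), and 10 of 11 were higher in Cas9 than in WT. The 15 microglia genes, none at 0, summed to 10985 to 12898, 14462 to 19202 and 13335 to 24146 in WT, Cas9 and GCas9 libraries, with 15 of 15 higher in both than in WT. The 12 astrocyte genes summed to 93449 to 100867, 105561 to 112184 and 91489 to 106569. Of the 18 medium spiny neuron genes, 17 were lower in Cas9 and 18 in GCas9 than in WT (medians -0.1 in both), with sums of 411226 to 442964, 347736 to 429421 and 356808 to 429369. The 13 pan-neuronal genes, 10 and 12 of them lower, summed to 150614 to 159616, 128724 to 155004 and 134856 to 154067, and the 15 T and NK cell genes, of which 3 to 7 were at 0 in WT libraries, to 3417 to 3981, 3584 to 4019 and 3512 to 4740. The 12 choroid plexus and ependymal genes summed to 297138 in Cas9 replicate 1 and to at most 13158 in any other library of set A. In set B the groups overlapped in such sums, except for the choroid plexus and ependymal genes in Cas9 against GFP. These summed to 636 to 847.2 in GFP and 848.6 to 11326 in Cas9 libraries, with the highest sum in Cas9 replicate 1. The plasma and B cell genes summed to 3151 to 24043 in GFP, 5221 to 18369 in Cas9 and 1117 to 36744 in GCas9 libraries. For the interferon-stimulated genes the sums were 2187 to 13360, 2518 to 20329 and 1430 to 9356. Rises over WT in set A thus cannot be tied to Cas9 rather than to virus or injection.

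Cas9 replicate 2 had the highest Manf count (2483). It had the lowest sum of its group for the interferon-stimulated (2821), plasma and B cell (1665), reactive astrocyte (8663), oligodendrocyte (240776) and endothelial (10316) genes. It was also the lowest for the microglia (14462), choroid plexus (1415), activated microglia and macrophage (62487), astrocyte (105561) and T and NK cell (3584) genes. For pan-neuronal genes it was the highest of its group (155004), and for medium spiny neuron genes it lay in the middle (416162). GCas9 replicate 3, which had the highest sums of interferon-stimulated (54894), plasma and B cell (62145) and reactive astrocyte genes (44512), had a Manf count of 962, below each Cas9 library. Without Cas9 replicate 1, the library with the choroid plexus genes, the Manf difference against WT was 1.22 ± 0.3, and in GCas9 against Cas9 it was -0.92 ± 0.3. GCas9 replicate 3 was both the library with the highest sums of these 3 lists and the highest of its group for 7 of the 10 genes, 1 of them Manf. The part of these cells and states in the differences of any of the 10 genes, Manf included, was not tested.

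**Figure D3:**
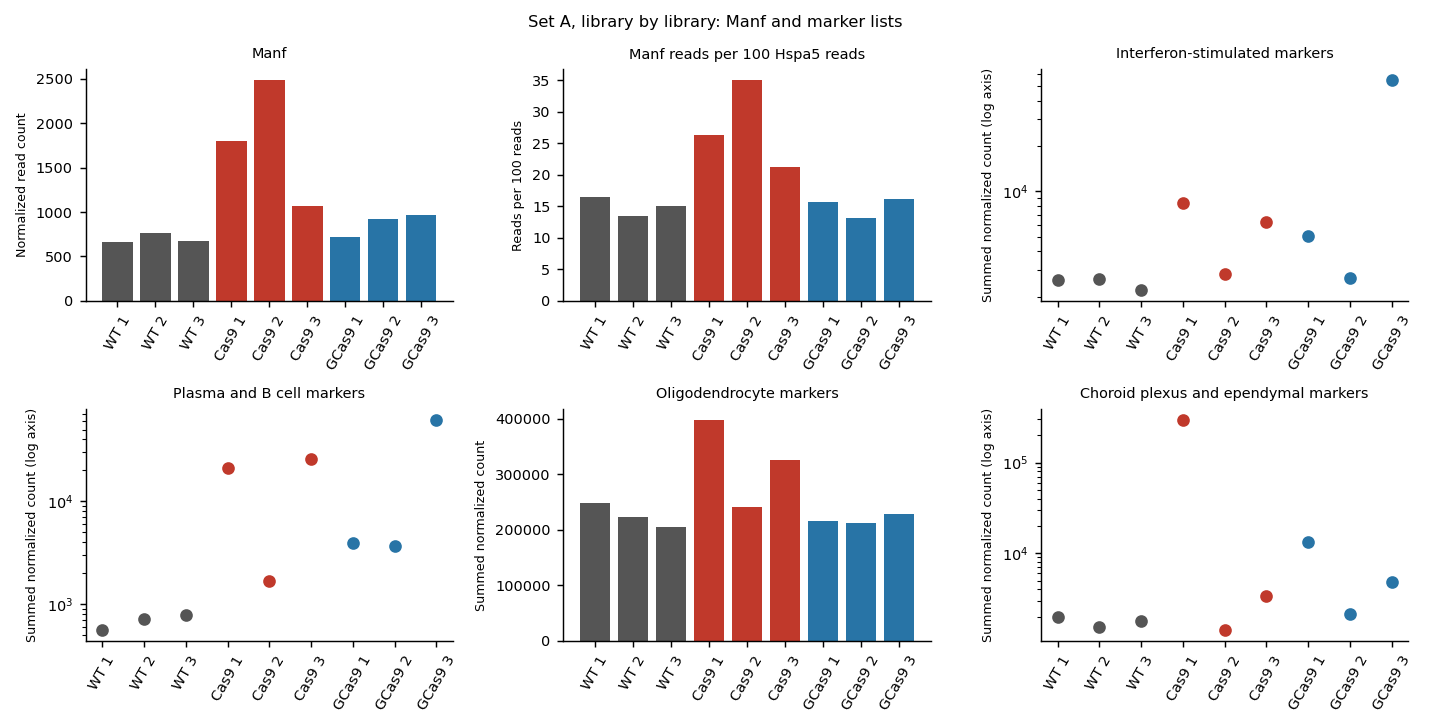
Manf counts, Manf reads per 100 Hspa5 reads and the summed normalized counts of 4 marker lists in the 9 libraries of set A; bars start at 0, and the panels with points have log axes. Cas9 replicate 2 has the highest Manf count (2483) and ratio (35) and the lowest interferon-stimulated sum of its group (2821), and GCas9 replicate 3 has the highest interferon-stimulated sum (54894) with a Manf count of 962.

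Further genes of the pathway were read from 6 lists holding 135 genes of the table, and 0 of them passed the threshold in a comparison within a set with limma or edgeR. At an unadjusted p under 0.05 in either direction, limma found 16 of 132 in Cas9 against WT (12.1%, against 11.8% of all genes). In GCas9 against WT it found 10 of 132 (7.58%, against 6.77%), and both shares lay near those of all genes. In GCas9 against Cas9 of set A it found 2 of 132 (1.52%, against 5.45%), and in set B it found 3 to 5 of 128 (2.34% to 3.91%), against 6.24% of all genes in Cas9 against GFP, 6.48% in GCas9 against GFP and 3.84% in GCas9 against Cas9. DESeq2 called 1, Nfe2l2 in GCas9 against WT, where it called 218 of all 15924 genes. With library weights, limma called 17 in Cas9 against WT and 3 in GCas9 against Cas9 of set A, where it called 2570 and 932 of all genes. Of 24 ER chaperones and folding enzymes, 18 were higher (75.0%, against 49.1% of all genes) and 6 lower in Cas9 than in WT (median 0.11). An unadjusted p under 0.05 was reached by 4, each higher (6.17% of all genes), and 7 lay above WT with no overlap (10.7% of all genes). Dnajb11 (ERdj3, a co-chaperone of Hspa5) had 908, 1044 and 1015 counts in WT and 1287, 1286 and 1209 in Cas9 libraries, a difference of 0.35 ± 0.1. Pdia3 (ERp57, which folds glycoproteins) had 3000, 3543 and 3342 in WT and 4532, 4234 and 3919 in Cas9 libraries, a difference of 0.36 ± 0.13. Ppib, a prolyl isomerase of the ER, differed by 0.25 ± 0.08. These 3 were among the 7 with no overlap, and their adjusted p was 0.41. In GCas9 against WT, 18 of the 24 were again higher (49.9% of all genes; median 0.04), 1 lay above WT with no overlap (9.16% of all genes), and 3 had an unadjusted p under 0.05 with a higher value (4.44% of all genes): Ppib (0.2 ± 0.08), Dnajb11 (0.24 ± 0.1) and Canx, the lectin chaperone calnexin (0.13 ± 0.06). In GCas9 against Cas9 of set A, 8 were higher (33.3%, against 54.3% of all genes) and 16 lower (median -0.04), with 0 at an unadjusted p under 0.05 (5.45% of all genes).

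Of 14 sensors and processing genes, 10 were higher in Cas9 than in WT (71.4%, against 49.1% of all genes; median 0.05). An unadjusted p under 0.05 was reached by 2 (14.3%), both higher, against 6.17% of all genes higher and 11.8% in either direction. Cas9 lay above WT with no overlap for 5 of the 14 (10.7% of all genes) and below it for 1. The share of all genes below WT with no overlap is not given here, so the count below is not read as a result. Nfe2l2 (NRF2, a substrate of PERK and the main activator of antioxidant genes) had 363, 360 and 352 counts in WT, 747, 477 and 540 in Cas9, and 587, 499 and 915 in GCas9 libraries. Both treated groups lay above WT, at 0.69 ± 0.22 and 0.85 ± 0.22 (adjusted p = 0.41 and 0.72). Ern1 (IRE1 itself) had 298, 289 and 347 in WT and 437, 362 and 433 in Cas9 libraries, a difference of 0.4 ± 0.15. Eif2ak3 (PERK) differed by 0.03 ± 0.09 and Atf6 by -0.09 ± 0.11 in the same comparison. Eif2ak2 (PKR, an interferon-induced kinase of the same substrate as PERK) was 130 to 141 in WT libraries and reached 2044 in GCas9 replicate 3, the library with the highest interferon-stimulated sum. Its own difference between GCas9 and WT was 1.73 ± 0.8.

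Of 26 secretory targets of XBP1 tested, 18 were higher in Cas9 and 23 in GCas9 than in WT (69.2% and 88.5%, against 49.1% and 49.9% of all genes; medians 0.06 and 0.09). At an unadjusted p under 0.05 in either direction there were 3 in Cas9 (11.5%, against 11.8%) and 1 in GCas9 (3.85%, against 6.77%). With no overlap, 7 lay above WT in Cas9 (10.7% of all genes) and 6 in GCas9 (9.16%), and 1 lay below WT in each. For genes below WT the share of all genes is not given here, so those counts are not read as a result. The differences were small: Sec62, of the ER translocon, was at 0.16 ± 0.05 and Srp19, of the signal recognition particle, at 0.14 ± 0.06 in Cas9 against WT, while Sec31a, of the COPII coat, was at -0.15 ± 0.05. Of 20 genes of ER-associated degradation, 16 were higher in Cas9 and 12 in GCas9 than in WT (medians 0.06 in both), with 3 and 1 at an unadjusted p under 0.05 (15.0% and 5.0%, against 11.8% and 6.77%). Derl2, a channel component for retrotranslocation, had 585 to 614 counts in WT, 669 to 691 in Cas9 and 649 to 688 in GCas9 libraries, at 0.17 ± 0.05 and 0.16 ± 0.05. Edem1, a lectin that marks misfolded glycoproteins, had 456 to 486 in WT and reached 1262 in GCas9 replicate 3.

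Of 38 PERK and ATF4 targets tested, 25 were higher in Cas9 and 28 in GCas9 than in WT (65.8% and 73.7%, against 49.1% and 49.9% of all genes; medians 0.05 and 0.12). At an unadjusted p under 0.05 there were 3 higher and 1 lower in Cas9 (10.5%, against 11.8% of all genes in either direction). In GCas9 there were 3 higher (7.89%, against 6.77%), and both shares lay near those of all genes. With no overlap, 7 lay above WT in Cas9 and 7 in GCas9 (10.7% and 9.16% of all genes), and 2 and 3 lay below. The counts below WT come without a share of all genes and are not read as a result. Aldh1l2 (a mitochondrial folate enzyme) had 112, 95.7 and 112 counts in WT, 217, 152 and 228 in Cas9, and 162, 166 and 415 in GCas9 libraries. Nupr1 (a stress-induced transcription regulator) had 78, 93.1 and 89 in WT, 169.5, 127 and 185 in Cas9, and 116, 137 and 356 in GCas9 libraries. Each of these 2 had no overlap with WT in either group, at 0.88 ± 0.34 and 1.07 ± 0.34 for Aldh1l2 and at 0.87 ± 0.37 and 1.04 ± 0.37 for Nupr1. For both, Cas9 replicate 2 was the lowest and GCas9 replicate 3 the highest of its group, as for the interferon-stimulated sums (2821 and 54894). For Manf, GCas9 replicate 3 was likewise the highest of its group, but Cas9 replicate 2 was the highest. The serine synthesis genes Psat1 (0.17 ± 0.07) and Phgdh (-0.31 ± 0.11, GCas9 against Cas9) were among the 3 of smallest p in their comparisons. The 10 genes of mitochondrial protein folding had medians of 0.03 and 0.02 against WT. In either comparison 0 of them had an unadjusted p under 0.05, against 11.8% and 6.77% of all genes.

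In set B the 6 lists had medians of -0.02 to 0.05 in Cas9 against GFP and of -0.05 to 0.06 in GCas9 against GFP. Among the genes of smallest p, Ero1lb, an oxidase that feeds disulfide isomerases, was at 0.44 ± 0.16 and Sec11c, of the signal peptidase, at 0.24 ± 0.08 in Cas9 against GFP. Sec11c had 586 to 656 counts in GFP and 712 to 780 in Cas9 libraries, which do not overlap. Gfpt1, the entry enzyme of hexosamine synthesis and an XBP1 target, was at -0.29 ± 0.1 in GCas9 against GFP. Their adjusted p values were 0.78, 0.78 and 0.72.

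**Figure D4:**
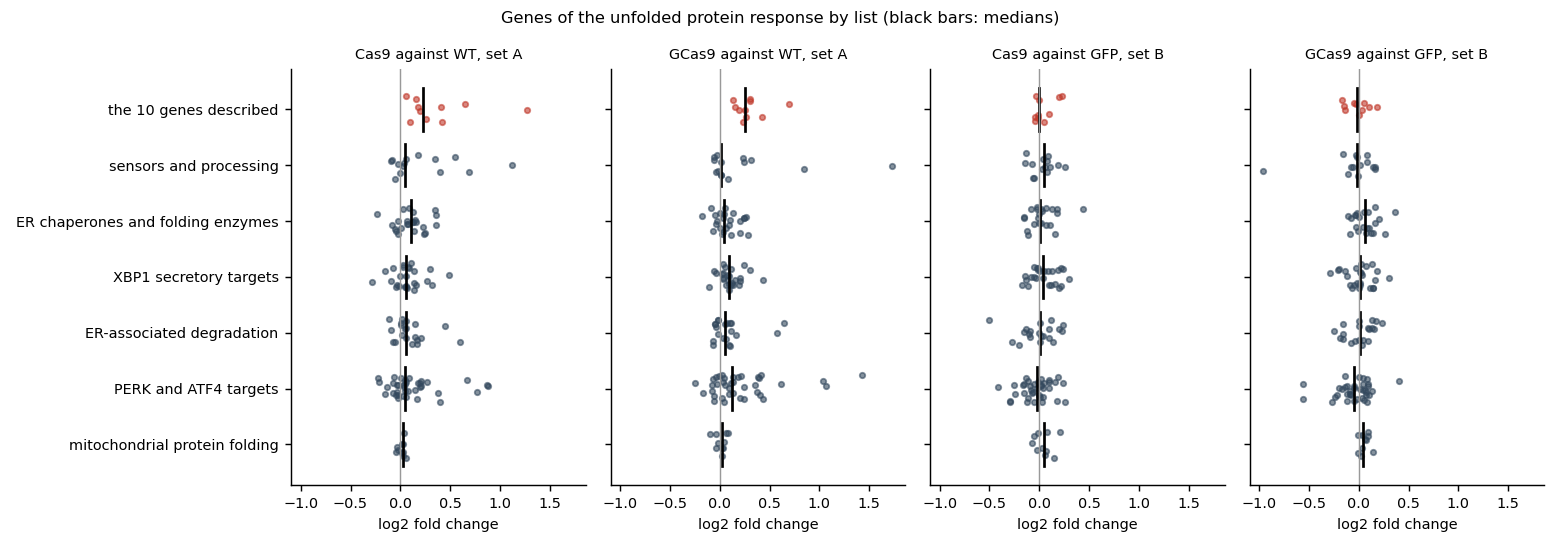
Log2 fold changes (horizontal axes) of the genes of each list (rows) in 4 comparisons; points are genes, spread vertically for sight, and black bars are medians. The 10 genes described have medians of 0.23 and 0.25 against WT in set A, where those of the other lists lie between 0.01 and 0.12, and the medians of set B lie near 0.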

How the data were processed

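RNA of 21 striatal libraries was measured. Per the labels' protocols, RNA was column-purified and checked for integrity, amplified as cDNA (SMARTer) and prepared with Nextera XT, so reads are not independent molecules. Per the submitters' processing notes, without roles: GRCm38.p3, R 3.3.3, HTSeq, DESeq2, SAMtools and STAR 2.5.2b. The unit of the deposited table is a signal: read counts per gene symbol that the authors divided by 1 DESeq2 size factor per library before they deposited the table. Whole reads were recovered from the step of each library (all nonzero values whole within 0.001 reads). The totals so scaled, 23.0 to 24.18 M for set A and 8.21 to 8.69 M for set B, were set apart by the authors, so levels were compared within a set. The sets follow the numbering of the titles. The fewest reads of a gene described here in a library were 91.

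On log2(normalized count + 1), limma 3.58.1 (R 4.3.3) was run two-sided with a mean trend on genes whose mean was at least 10, the 3 groups of a set together, Benjamini-Hochberg over all genes, threshold 0.05. The procedure was tested on simulated data. Alternatives were a pseudocount of 10, no filter, a mean of at least 50, TMM scaling, quantile normalization, edgeR 4.0.16 quasi-likelihood, DESeq2 1.42.0 and library weights. Others were a replicate block, only the 2 groups compared, and each library left out. The block and the 2 groups were joined where every same-numbered pair correlated by over 0.1 (chosen after seeing the data). Deviations of same-numbered libraries from their group means correlated by over 0.1 in every pair between GCas9 and WT of set A (0.11 to 0.28). The same held between GCas9 and Cas9 of set B (0.12 to 0.33). Pairing was assumed there from these weak correlations alone, as the labels name no shared animal or day. Between GCas9 and Cas9 of set A, 2 of 3 pairs exceeded 0.1 (0.09 to 0.64), so the rule was not met.

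The genes and lists were chosen with earlier results of these data known. Named are the 10 genes, up to 3 genes of smallest p per list and comparison (mean of at least 50), and the 8 genes with the highest r to Manf, without gene models that have only a number for a name. Cdnf, Eif2ak3 and Atf6 were named outside that rule, after their values were seen, as was Nupr1 in Cas9 against WT. Protein sequences were not used here.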

Additional observations from a re-analysis of the deposited data

Results flagged for a closer look

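Creld2 in set B had 324.2 normalized counts in GCas9 replicate 2, where the other GCas9 libraries had 260.3 to 268.9, so this library stood far from its group. Hsp90b1 in set B had 2795 in GFP replicate 3, where the other GFP libraries had 2521 to 2525. These were 2 of 30 groups examined (the 10 genes in the 3 groups of set B), and chance alone flags about 1 in 20 groups. The Manf difference between GCas9 and Cas9 differed between the sets by -0.83 on the log2 scale (set A minus set B, adjusted p = 0.99 in limma over all 21 libraries; an unadjusted p under 0.05 was reached by Manf and by 4.34% of all genes). In set A each GCas9 library lay below each Cas9 library, and in set B the groups overlapped.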

How the results depend on the processing

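Of the alternative values of the log2 fold changes of single genes, 1033 kept direction and side of the threshold, 65 changed sign without passing it and 2 (Manf in Cas9 against WT, with DESeq2 and with library weights) newly passed it. The threshold was passed by 1 of the 10 genes in Cas9 against WT with DESeq2 and with library weights. Genes with an unadjusted p under 0.05 became 5 in GCas9 against WT with no filter, with edgeR, with DESeq2 and with only 2 groups, 2 in GCas9 against Cas9 of set A and 2 in Cas9 against GFP with library weights, and 1 in GCas9 against Cas9 of set B with library weights. Left-out libraries moved these counts between 1 and 7 (Cas9 against WT), 0 and 7 (GCas9 against WT), 0 and 1 (Cas9 against GFP) and 0 and 1 (GCas9 against GFP).

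Of all genes, Cas9 against WT had 1 past the threshold, 0 with a pseudocount of 10 or edgeR, 116 with DESeq2, 2570 with library weights, 6 with only 2 groups and 0 to 7 without single libraries. GCas9 against WT had 1, then 218 with DESeq2, 6 with library weights and 0 to 2 without single libraries. GCas9 against Cas9 of set A had 0, then 4 with DESeq2, 932 with library weights and 0 to 1 without single libraries. Cas9 against GFP had 0, then 14 with DESeq2 and 0 to 2 without single libraries. GCas9 against GFP had 0, then 41 with DESeq2, 12 with library weights, 7 with only 2 groups and 0 to 3 without single libraries. The cause was not tested.

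Signs changed for small differences. They were -0.06 for Creld2 (Cas9 against WT, library weights). In GCas9 against Cas9 of set A they were 0.0 (TMM) and -0.01 (edgeR) for Pdia4, 0.0 for Hsp90b1 (quantile, DESeq2) and 0.01 for Dnajb9 (library weights). Hspa5 was at 0.02 in Cas9 against GFP (quantile), at -0.03 (quantile) and -0.08 (library weights) in GCas9 against GFP, and at -0.04 (quantile) and -0.07 (library weights) in GCas9 against Cas9 of set B. There Xbp1 was at -0.01 (quantile) and -0.02 (library weights), and Ddit3 was at 0.0 in GCas9 against GFP (library weights). Without single libraries, GCas9 against Cas9 of set A ran from -0.27 to 0.05 (Hspa5), -0.15 to 0.17 (Pdia4), -0.09 to 0.12 (Hsp90b1), -0.04 to 0.11 (Ddit3), -0.06 to 0.15 (Xbp1), -0.09 to 0.01 (Dnajb9) and -0.1 to 0.24 (Sdf2l1). Cas9 against GFP ran from -0.09 to 0.04 (Hspa5), -0.12 to 0.07 (Pdia4), -0.01 to 0.04 (Hsp90b1), -0.09 to 0.01 (Xbp1), -0.14 to 0.07 (Dnajb9), -0.09 to 0.05 (Creld2) and -0.02 to 0.19 (Sdf2l1). GCas9 against GFP ran from -0.08 to 0.07 (Hspa5), -0.08 to 0.03 (Xbp1) and -0.17 to 0.06 (Sdf2l1), and GCas9 against Cas9 of set B from -0.04 to 0.08 (Hspa5) and -0.03 to 0.06 (Xbp1).

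With a replicate block on the 3 groups of a set, the genes past the threshold were 2 in Cas9 against WT, 2 in GCas9 against WT and 5 in GCas9 against GFP, and 2 of the 10 genes in Cas9 against GFP had an unadjusted p under 0.05. With the block on only the 2 groups, chosen after seeing the data for the 2 comparisons whose same-numbered libraries all correlated by over 0.1, GCas9 against WT had 0 genes past the threshold and 8 of the 10 genes at an unadjusted p under 0.05, and GCas9 against Cas9 of set B had 0 and 0. No other call changed with a block, and no single gene's direction did. In the other 4 comparisons 1 or 2 of the 3 or 4 same-numbered pairs correlated by over 0.1 (-0.13 to 0.64), so no block was fitted to those 2 groups alone.

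Limits: groups of 3 and 4 libraries leave wide intervals, and counts per gene hold neither splicing nor protein. The control group, depth and mitochondrial share differ between the sets.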
